A study of Mus musculus with 8 samples.

Results

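A set of 10 genes of the fat cell was examined in mouse skin, chosen by gene symbol from the 34745 genes of the deposited table. They were Lep, Adipoq and Cfd, which encode the secreted proteins leptin, adiponectin and adipsin; Plin1, Plin4 and Cidec, which encode lipid droplet proteins; Fabp4, Lpl and Lipe, which handle fatty acids and triglyceride; and Pparg, a nuclear receptor. All 10 were found once in the table and all 10 were among the 15684 genes left by a filter on low counts, which Lep passed through its normal libraries. RNA sequencing had given 8 libraries from skin of mice aged 16 weeks, 4 labelled NcstnΔKC and 4 labelled normal, all labelled male. Mice of the NcstnΔKC group were Ncstn flx/flx; Krt14 CreER+/-, that is, with floxed Ncstn, the gene of the γ-secretase subunit nicastrin, and a tamoxifen-dependent Cre recombinase under the keratin 14 promoter, which is active in basal keratinocytes. They were given tamoxifen by oral gavage at 20 mg per kg body weight daily for 5 days, starting at 8 weeks of age, and again at intervals of 10 days. Normal mice had the same alleles and were given corn oil according to the protocol text, whereas their genotype label reads wildtype. The tissue was described as excised skin lesions, and the body site is not given in the sources used here.

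Mouse skin has a layer of white adipocytes beneath the dermis, around the lower part of the hair follicles, which thickens and thins with the hair cycle. In these cells PPARγ, the product of Pparg, works with C/EBP factors to switch on the genes of the mature fat cell. Lipoprotein lipase (Lpl) releases fatty acids from circulating lipoproteins, FABP4 carries them within the cell, the perilipins and CIDEC coat and enlarge the lipid droplet, and hormone-sensitive lipase (Lipe) takes part in breaking its contents down again. Leptin, adiponectin and adipsin are released into the blood. Several of these genes are also used outside fat: Lpl in muscle, Fabp4 in endothelium and macrophages, and Pparg in sebaceous glands. The libraries come from whole tissue, so fewer adipocytes and less RNA per adipocyte cannot be told apart, nor can dermal fat be told apart from fat that lies deeper.

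Total counts ran from 5835422 to 8663753 in the normal libraries and from 11881506 to 12893174 in the NcstnΔKC libraries. Normal replicates 3 and 4 and NcstnΔKC replicates 3 and 4 held between 22304 and 37109 counts of Xist, a transcript of female cells, although every library was labelled male, and the other 4 libraries held 4 to 9. Ncstn stood at 58.4 to 61.9 CPM in normal and 50.2 to 66.8 CPM in NcstnΔKC libraries, where CPM is the count scaled to library size with edgeR's TMM factors. The floxed exons were not counted apart from the rest of Ncstn, and the groups are named by their labels. NcstnΔKC replicate 1 stood apart from the other 3: its macrophage markers (9 genes) took 0.0556% of counts, against 0.323% to 0.423% in the others and 0.0529% to 0.0936% in normal skin. Basal keratinocyte markers (13 genes) took 0.792% to 1.34% of counts in normal and 1.38% to 2.03% in NcstnΔKC libraries. No label says whether the replicates of a group are separate animals, so the p-values measure the spread between these samples, which may in part be technical.

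Promoter windows of the mouse reference (RefSeq, build GRCm38.p6, from 250 bases before to 50 bases after a gene's start) were available for 8 of the 10 genes, in 12 windows, since Cidec, Lipe and Pparg have more than 1 start. They were searched on both strands for 5 motifs: TTGCGCAA, the palindromic C/EBP site; TTGCNNAA, a looser form that includes it; CCAAT, the site known for binding the factor NF-Y; TATAA, the core of the TATA box; and the PPAR direct repeat with a spacing of 1. The windows of Lep, Adipoq and Plin1 are shown because these genes were all lower in NcstnΔKC skin but differed in how far they fell relative to each other. Each is printed along its gene's own strand with motif matches in capitals. The Lep window lies at chr6:29059971-29060270 on the plus strand, the Adipoq window at chr16:23146286-23146585 on the plus strand, and the Plin1 window at chr7:79732727-79733026 on the minus strand.
Lep: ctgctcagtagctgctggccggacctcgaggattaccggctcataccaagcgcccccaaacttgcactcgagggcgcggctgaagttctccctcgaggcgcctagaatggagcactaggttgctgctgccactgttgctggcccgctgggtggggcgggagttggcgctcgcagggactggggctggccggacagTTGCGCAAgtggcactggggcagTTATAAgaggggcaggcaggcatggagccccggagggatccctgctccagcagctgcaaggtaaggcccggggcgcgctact
Adipoq: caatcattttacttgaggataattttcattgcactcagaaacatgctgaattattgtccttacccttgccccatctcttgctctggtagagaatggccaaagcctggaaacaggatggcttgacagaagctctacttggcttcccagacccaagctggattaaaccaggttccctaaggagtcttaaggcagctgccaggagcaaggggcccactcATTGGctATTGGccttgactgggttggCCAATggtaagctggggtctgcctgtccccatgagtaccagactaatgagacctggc
Plin1: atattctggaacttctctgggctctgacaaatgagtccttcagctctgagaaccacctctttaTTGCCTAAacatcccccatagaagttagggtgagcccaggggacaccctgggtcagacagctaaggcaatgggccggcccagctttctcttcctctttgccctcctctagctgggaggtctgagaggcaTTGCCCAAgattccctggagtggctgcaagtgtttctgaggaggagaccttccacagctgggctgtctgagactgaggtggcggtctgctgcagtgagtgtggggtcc

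The palindromic C/EBP site occurred in the Lep window, beginning 55 bases before the start, and in none of the other 11; among all 32851 mouse windows of this length it was found in 60 (0.18%). TATAA followed in the Lep window, 31 bases before the start, where its match on the opposite strand overlaps it. TATAA was present in 3 of the 12 windows and in 24.87% of all windows. The looser form TTGCNNAA was present in 4 of the 12 windows (Lep, Plin1 and 1 each of Cidec and Pparg) and in 10.8% of all, and the Plin1 window held it in a pair, 187 and 58 bases before the start. The Adipoq window held CCAAT at 3 places, 34, 27 and 7 bases before the start. CCAAT was present in 4 of the 12 windows and in 37.41% of all. The PPAR direct repeat matched none of the 12 windows and 0.38% of all. A match is a match of letters in a short window and does not show that a factor binds there.

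The comparison asked how these genes differ between normal skin and skin in which keratinocytes were targeted for loss of Ncstn. Tamoxifen was given to the NcstnΔKC group alone, so an effect of the drug itself cannot be told apart from that of Ncstn targeting. All 10 had lower mean levels in the libraries labelled NcstnΔKC, and 7 passed the test, all of them lower: Lep, Plin1, Fabp4, Adipoq, Pparg, Plin4 and Lipe (edgeR's quasi-likelihood test with Benjamini-Hochberg adjustment over 15684 genes, threshold 0.05). Cfd, Lpl and Cidec did not pass. The median log2 fold change of the 10 was -1.75, against -0.02 over all genes tested. Because the 10 were chosen with earlier results of these data known, this contrast is a description and not independent support. Of all genes tested, 22.7% were called lower and 21.4% higher. None of the 10 was called higher, by this test or under any of the 27 alternatives, and no member had a positive value to be counted at an unadjusted p under 0.05. For 5 of the 10 (Lep, Adipoq, Fabp4, Plin1 and Pparg) every NcstnΔKC library lay below every normal library, a pattern seen in 20.7% of all genes tested.

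**Figure D1:**
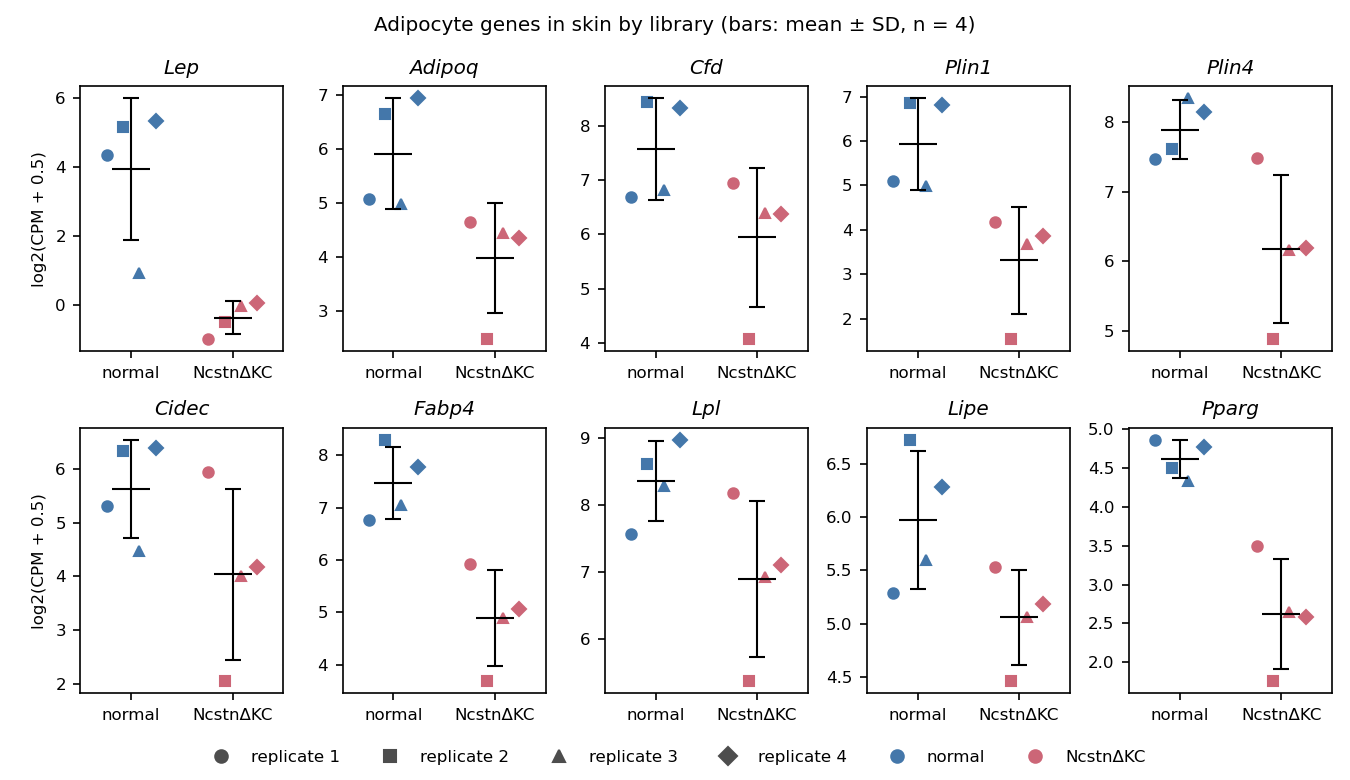
Level of each of the 10 genes in each library, on a log2 scale of CPM with 0.5 added; horizontal bars are the group mean of these log2 values and whiskers 1 SD (n = 4 each), and symbols mark the replicate number. Normal replicates 2 and 4 are the highest normal libraries for every gene except Plin4 and Pparg. NcstnΔKC replicate 2 is the lowest library for every gene except Lep.

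Lep was the member with the largest difference. Leptin is the hormone by which fat reports its stores to the brain. The normal libraries held 130, 174, 10 and 308 counts of Lep in replicates 1 to 4, or 19.7, 35.1, 1.41 and 40.1 CPM. Those labelled NcstnΔKC held 0, 3, 7 and 8 counts, or 0, 0.205, 0.484 and 0.537 CPM, and the 0 counts of replicate 1 allow up to 3 counts, or 0.252 CPM. The groups did not overlap, although normal replicate 3 was far below the other normal libraries, and its 95% Poisson counting interval (0.677 to 2.60 CPM) overlapped that of NcstnΔKC replicate 4 (0.232 to 1.06 CPM). Mean levels were 24.1 ± 17.4 CPM in normal and 0.307 ± 0.251 CPM in NcstnΔKC skin (SD, n = 4 each). The log2 fold change was -6.19 ± 1.04 (SE, adjusted p = 0.00196). Counts of 0 to 8 in the NcstnΔKC libraries limit how well the size of this change is known. Over the 27 alternatives it ran from -7.78 to -2.33, the latter on log2 FPKM, a length-scaled level, with 1 added. Lep was not called in the libraries with Xist alone or in those without it alone. Lep lies at mm10 chromosome 6, 29060220 to 29073877.

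Adipoq encodes adiponectin, a hormone made almost only by adipocytes. Its levels were 33.4, 99.6, 31.1 and 123 CPM in normal replicates 1 to 4 and 24.8, 5.06, 21.4 and 19.9 CPM in the NcstnΔKC replicates. The highest NcstnΔKC library, at 24.8 CPM, lay close under the lowest normal one, at 31.1 CPM. Normal replicates 2 and 4 stood far above replicates 1 and 3, so the normal group was itself split. Adipoq fell 4.04-fold (log2 fold change -2.01 ± 0.59, adjusted p = 0.0215). It did not pass without normal replicate 2 (-1.76) or without normal replicate 4 (-1.55). Its locus is mm10 chromosome 16, 23146536 to 23158028.

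Cfd encodes adipsin, a serine protease that activates the alternative complement pathway. Levels were 103, 347, 112 and 323 CPM in normal and 123, 16.2, 83.4 and 82.9 CPM in NcstnΔKC replicates 1 to 4. The groups overlapped, since NcstnΔKC replicate 1 lay above normal replicates 1 and 3. The log2 fold change of -1.53 ± 0.61 did not pass (adjusted p = 0.0684), and without NcstnΔKC replicate 1 it did (-1.86). Its locus in the table is chromosome 10, 79890853 to 79892656. Lep and Adipoq thus passed among the secreted proteins, and Cfd did not.

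Among the droplet proteins, Plin1 encodes perilipin 1, which coats the droplet and gates lipase access to it. Plin1 stood at 33.9, 116, 31.3 and 111 CPM in normal replicates 1 to 4 and at 17.6, 2.39, 12.3 and 14.0 CPM in the NcstnΔKC replicates. No library of one group reached the other, and normal replicates 2 and 4 were again the high ones. Plin1 fell 6.30-fold (log2 fold change -2.66 ± 0.65, adjusted p = 0.0103; chromosome 7, 79720218 to 79732903).

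Plin4, a perilipin of small, newly filled droplets, stood at 177, 196, 326 and 284 CPM in normal and 179, 28.8, 70.9 and 72.5 CPM in NcstnΔKC replicates 1 to 4. A single library, NcstnΔKC replicate 1, reached into the normal range, and the other 3 lay well below it. Plin4 fell 2.80-fold (log2 fold change -1.49 ± 0.48, adjusted p = 0.0332; chromosome 17, 56100591 to 56109803). Its call ended when normal replicate 3 or 4 or NcstnΔKC replicate 3 or 4 was left out, with values of -1.26, -1.36, -1.39 and -1.40. The normal libraries with the highest Plin4 were replicates 3 and 4, whereas those with the highest Plin1 were replicates 2 and 4. The span of Plin4 overlaps that of Hdgfl2 on the opposite strand, and whether their exons overlap was not checked. The strand setting of the counting is not given in the sources used here, so reads of any shared exon stretch cannot be assigned.

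Cidec encodes a protein that fuses small droplets into the single large droplet of a white adipocyte. Its levels were 39.2, 80.0, 21.7 and 82.9 CPM in normal and 60.6, 3.62, 15.5 and 17.5 CPM in NcstnΔKC replicates 1 to 4. NcstnΔKC replicate 1 lay above normal replicates 1 and 3. The log2 fold change was -1.21 ± 0.74, with a 95% interval from -2.88 to 0.47, and did not pass (adjusted p = 0.214; chromosome 6, 113424634 to 113435760). Without NcstnΔKC replicate 1 it was -2.19 and passed.

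Of the genes that handle fatty acids, Fabp4 fell most. It stood at 108, 312, 132 and 219 CPM in normal replicates 1 to 4 and at 59.9, 12.3, 29.1 and 33.0 CPM in the NcstnΔKC replicates. The groups did not overlap, with a gap between them from 59.9 to 108 CPM. Fabp4 fell 5.75-fold (log2 fold change -2.52 ± 0.50, adjusted p = 0.00402; chromosome 3, 10204088 to 10208576).

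Lipe, the hormone-sensitive lipase, changed least among the members that passed. Its levels were 38.6, 105, 48.0 and 77.4 CPM in normal and 45.8, 21.5, 33.0 and 35.9 CPM in NcstnΔKC replicates 1 to 4. NcstnΔKC replicate 1 lay above normal replicate 1. Lipe fell 1.97-fold (log2 fold change -0.98 ± 0.34, adjusted p = 0.042; chromosome 7, 25379527 to 25398710), and it lost its call under 15 of the 27 alternatives. Among these were the fits without normal replicate 2 or 4 (-0.63 and -0.84) and without NcstnΔKC replicate 2, 3 or 4 (-0.81, -0.96 and -1.0). The span of Lipe overlaps that of an antisense gene, 4732471J01Rik, with the same limits as for Plin4.

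Lpl, lipoprotein lipase, was the most abundant of the 10 by counts. Levels were 189, 390, 312 and 499 CPM in normal and 290, 40.9, 121 and 137 CPM in NcstnΔKC replicates 1 to 4. NcstnΔKC replicate 1 again reached into the normal range, above normal replicate 1. The log2 fold change of -1.24 ± 0.52 did not pass (adjusted p = 0.0814; chromosome 8, 68880491 to 68907448), and without NcstnΔKC replicate 1 it did (-1.80).

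Pparg, the receptor that drives fat cell differentiation, differed from the other members in how even its normal levels were. It stood at 28.5, 22.2, 19.6 and 26.7 CPM in normal replicates 1 to 4, without the split seen for Adipoq. The NcstnΔKC replicates had 10.8, 2.87, 5.74 and 5.51 CPM, all below the normal range. Pparg fell 3.90-fold (log2 fold change -1.96 ± 0.36, adjusted p = 0.00284; chromosome 6, 115360951 to 115490399). The span of an antisense gene, Gm44079, overlaps that of Pparg, with the same limits as for Plin4. Sebocyte markers (10 genes), a cell type that also uses Pparg, took 0.0575% to 0.257% of counts in normal and 0.0257% to 0.0537% in NcstnΔKC libraries, with 5 of 10 called lower (3 to 9 with 1 library left out) and none higher, and their part in the Pparg result was not tested.

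**Figure D2:**
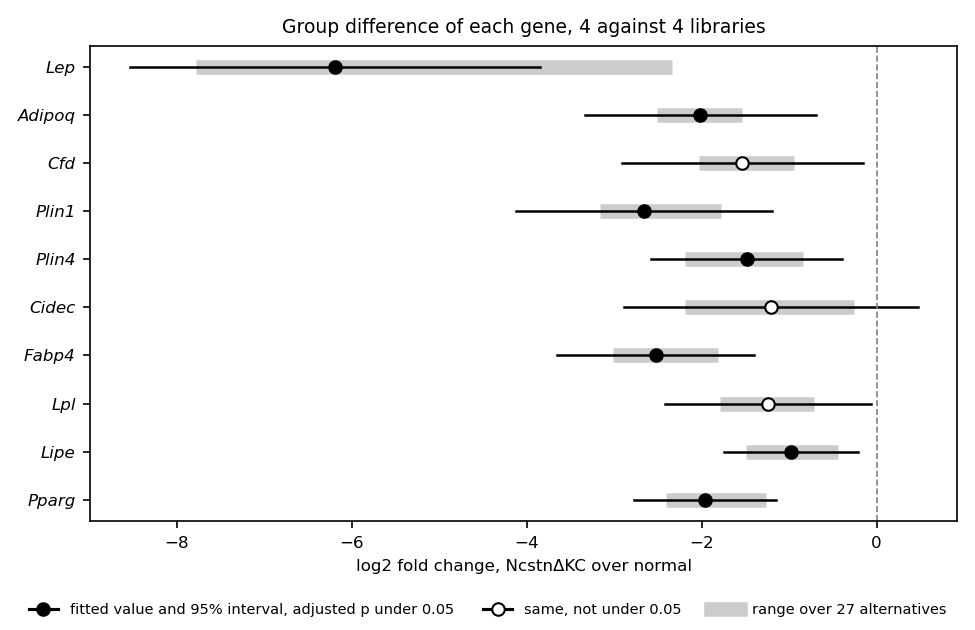
Log2 fold change of each gene, NcstnΔKC over normal, with its 95% interval (line) and the range over 27 alternatives (grey bar); filled circles have an adjusted p under 0.05. Every fitted value and every alternative lies below 0, from -6.19 for Lep to -0.98 for Lipe among the fitted values, and the interval of Cidec crosses 0.

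How many of the 10 passed moved with single libraries. Without NcstnΔKC replicate 1 all 10 were called lower, with 26% of all genes called lower in that fit. Without normal replicate 4 the number was 4 (Lep, Fabp4, Plin1 and Pparg), with 16.8% of all genes called lower. With libraries scaled by their basal keratinocyte markers, 9 of 10 were called lower against 37.1% of all genes, and scaled by their dermal fibroblast markers, Lep alone was, against 1.03%. The median of all genes was -0.50 under the first of these scalings and 0.32 under the second. The fibroblast markers (9 genes) took 0.478% to 3.44% of counts in normal and 0.462% to 1.55% in NcstnΔKC libraries, and their share differed within the normal group more than the members' did.

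The group difference was then taken within each Xist class, 2 libraries against 2. In the 4 libraries with Xist, 6 of the 10 were called lower (Fabp4, Plin1, Plin4, Lpl, Lipe and Pparg), with 25.4% of all genes called lower. In the 4 libraries without Xist none of the 10 was called, and 0.0255% of all genes (4 genes) were called in either direction. At an unadjusted p under 0.05, 4 of the 10 and 25% of all genes passed there. Libraries of a group were also less alike in the class without Xist. Chi-square per gene between them was 65.7 in normal and 109 in NcstnΔKC skin, against 19.8 and 9.63 in the class with Xist. The part of this spread in the missing calls was not tested. The values of the 10 ranged from -7.78 (Lep) to -0.81 (Lpl) in the libraries without Xist and from -5.29 (Lep) to -0.83 (Lipe) in those with it. A test of the difference between the classes (an interaction term, edgeR) called 0% of all genes, none of the 10 among them, and 917 genes (5.85%) at an unadjusted p under 0.05, again none of the 10. For Pparg the difference between the classes was -0.14, with a 95% interval from -1.94 to 1.66, and for Lep it was 2.47 (-3.19 to 8.13).

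Levels of different genes can be set beside each other on the FPKM scale, which divides by gene length. In normal skin the order of mean FPKM was Cfd (212 ± 124), Lpl (40.0 ± 15.2), Adipoq (39.8 ± 26.1), Fabp4 (33.1 ± 15.1), Plin4 (23.4 ± 5.86), Cidec (15.3 ± 8.21), Plin1 (10.2 ± 6.42), Lep (6.20 ± 4.41), Lipe (6.12 ± 2.60) and Pparg (5.25 ± 1.28; SD, n = 4 each). Cfd exceeded Lpl in all 4 normal libraries, while Lpl and Adipoq exceeded each other in 2 libraries each, as did Lep and Lipe. In NcstnΔKC skin the order was Cfd (90.3 ± 48.8), Lpl (20.7 ± 13.1), Adipoq (12.2 ± 5.71), Plin4 (10.2 ± 6.63), Cidec (7.87 ± 7.47), Fabp4 (7.10 ± 3.67), Lipe (3.88 ± 0.932), Plin1 (1.99 ± 1.06), Pparg (1.63 ± 0.746) and Lep (0.101 ± 0.0822). Lep went from eighth to last, Plin1 from above Lipe in mean level to below it, and Fabp4 from above Plin4 to below it.

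Each FPKM was also divided by that of Adipoq in the same library. The Lep to Adipoq ratio was 0.0208 to 0.270 in normal and 0 to 0.0185 in NcstnΔKC libraries, without overlap. Plin1 to Adipoq was 0.227 to 0.292 in normal and 0.119 to 0.179 in NcstnΔKC libraries, also without overlap, and both ranges were narrow although Adipoq itself varied widely. Cfd to Adipoq, at 4.54 to 6.27 and 5.55 to 8.64, overlapped, as did Fabp4 (0.555 to 1.33 and 0.425 to 0.759) and Pparg (0.0837 to 0.330 and 0.104 to 0.219). Lipe to Adipoq was 0.104 to 0.256 in normal and 0.256 to 0.705 in NcstnΔKC libraries, meeting at the edge. These ratios are a description and were not tested.

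**Figure D3:**
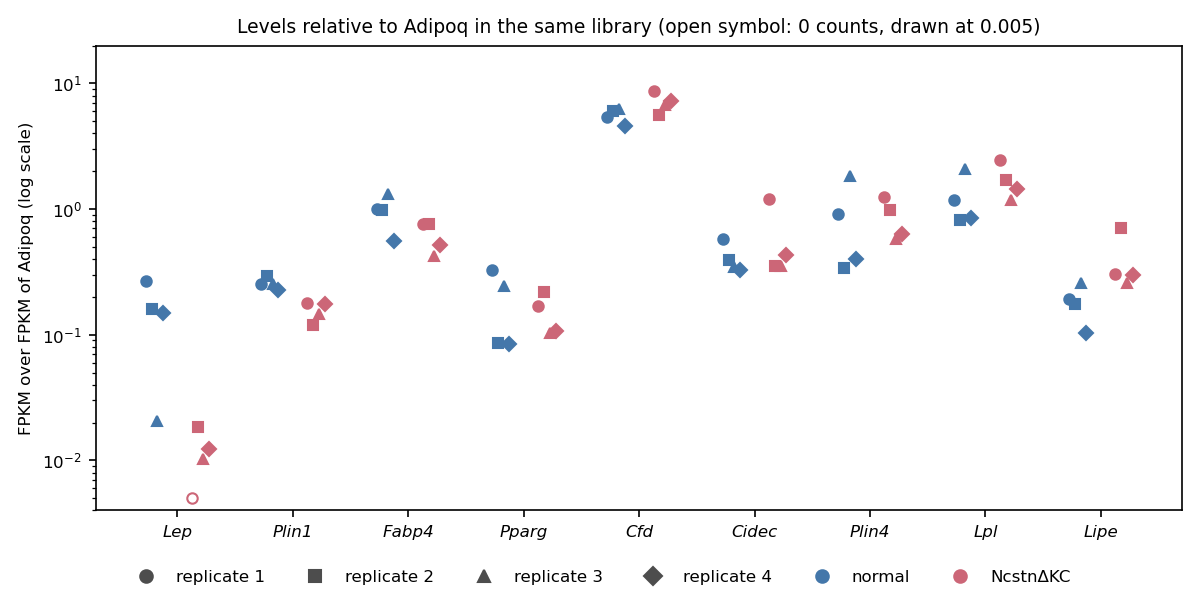
FPKM of each of 9 genes divided by the FPKM of Adipoq in the same library (log axis); colours are the groups, symbols the replicate numbers, and the open symbol is NcstnΔKC replicate 1, which had 0 counts of Lep and is drawn at 0.005. Lep and Plin1 have group ranges that do not overlap, and Cidec in NcstnΔKC replicate 1 stands at 1.199, above every other library.

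The mean profile of the 10 genes over the 8 libraries was described by their mean deviation from each gene's own mean. It was 0.55, 1.62, 0.29 and 1.68 on the log2 scale for the normal replicates and -0.16, -2.32, -0.88 and -0.80 for the NcstnΔKC replicates, in order. NcstnΔKC replicate 1 was thus closer to normal replicates 1 and 3 than to NcstnΔKC replicate 2. Adipoq lay nearest to this mean profile, at a root mean square distance of 0.27, and Lep farthest, at 1.60, followed by Lipe (0.68) and Plin4 (0.60). Outside the 10 genes, the 8 with the nearest profiles among 13677 candidates were Aoc3 (0.29), Glb1l2 (0.30), Tshr (0.33), Btnl9 (0.34), Hcfc1r1 (0.34), Chrdl1 (0.36), Pck1 (0.38) and Ntrk3 (0.38), over 8 libraries. Aoc3 encodes a vascular and adipocyte amine oxidase, Tshr the thyrotropin receptor and Pck1 the cytosolic phosphoenolpyruvate carboxykinase. All 8 were called lower, which follows in part from how they were picked.

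Other genes of the fat cell were taken from lists, whose counts of calls stand against the 22.7% lower and 21.4% higher among all genes. The lists were chosen with earlier results of these data known and share some genes, so they are not independent support for the members. Of 16 further adipocyte genes, 10 were lower and none higher, with a median of -1.75, the same as for the 10 members. Sncg, γ-synuclein, which is abundant in white fat, fell from 24.2 ± 3.95 to 1.93 ± 0.619 CPM, and Lgals12, a galectin of lipid droplets, from 16.3 ± 2.30 to 1.5 ± 0.93 CPM. Rbp4, the retinol carrier (7.27 ± 4.05 to 0.819 ± 0.451 CPM), and Gpd1, which makes the glycerol backbone of triglyceride (116 ± 51.7 to 15.2 ± 7.86 CPM), fell as well. In all 4 the groups did not overlap. Retn, the adipokine resistin, fell from 50.03 ± 34.9 to 15.8 ± 7.64 CPM with overlapping groups, and Slc2a4, the insulin-regulated glucose transporter, had -1.03 ± 0.66 without passing.

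**Figure D4:**
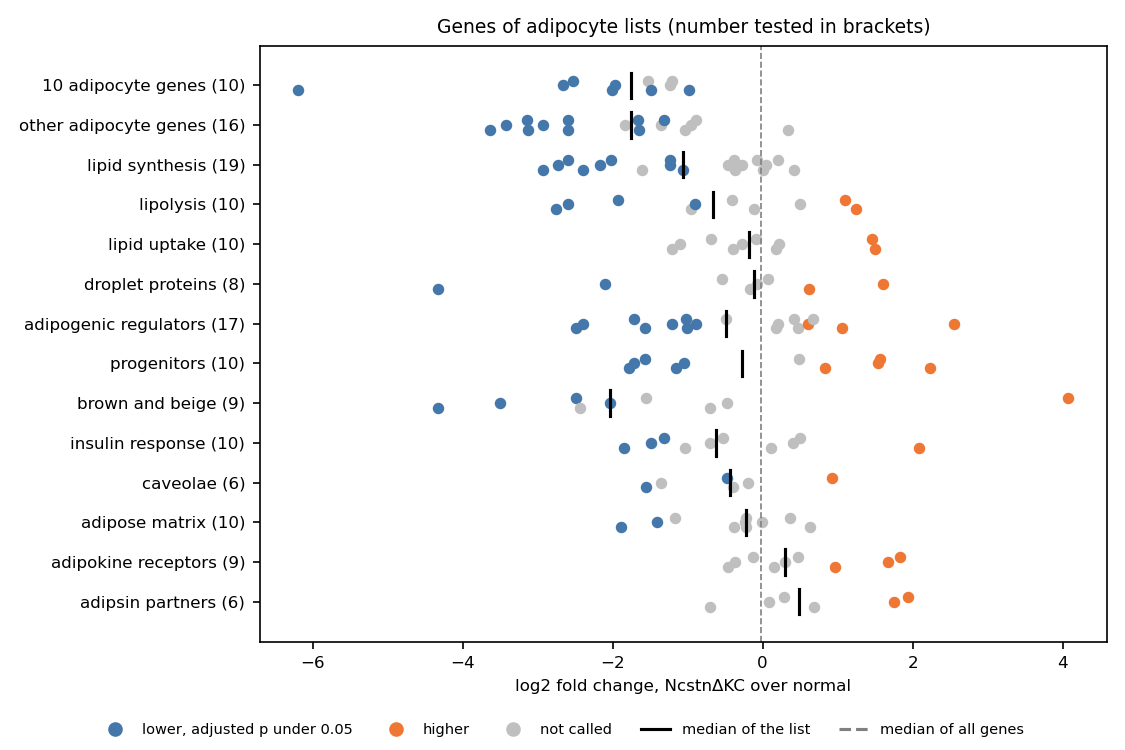
Log2 fold change of every tested gene in 14 lists, 1 point per gene, blue where called lower, orange where called higher and grey where not called; black bars are list medians and the dashed line is the median of all genes (-0.02). The 10 members and the 16 further adipocyte genes have no gene called higher, while the lists of adipogenic regulators and progenitors hold calls on both sides.

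Of 19 genes of lipid synthesis, 9 were lower and none higher, with a median of -1.06. Mlxipl, the carbohydrate-responsive factor ChREBP, fell from 37.7 ± 21.3 to 7.16 ± 2.11 CPM. Me1, malic enzyme, fell from 170 ± 34.3 to 72.7 ± 24.5 CPM, and Scd1, a fatty acid desaturase also made by sebocytes, from 3115 ± 1241 to 693 ± 638 CPM. Fasn (-0.46 ± 0.25), Acly (-0.28 ± 0.21) and Acaca (0.05 ± 0.15), enzymes of fatty acid synthesis used in epidermis too, did not pass, and the sign of Acly and Acaca turned under 2 of the 5 other scalings.

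Of 10 lipolysis genes beside Lipe, 4 were lower and 2 higher, and 2 were lower when NcstnΔKC replicate 2 or 3 or normal replicate 2 or 4 was left out. Mgll, the monoacylglycerol lipase that takes the last step, fell from 163 ± 33.4 to 24.3 ± 13.6 CPM, and Adrb3, the β3-adrenergic receptor of fat cells, from 8.41 ± 5.2 to 1.38 ± 0.617 CPM. G0s2, an inhibitor of adipose triglyceride lipase, and Prkar2b, a regulatory subunit of protein kinase A, also fell. Abhd5, the coactivator of that lipase, rose from 48.8 ± 2.70 to 116 ± 26.4 CPM, and it is widely expressed outside fat. The lipase itself, Pnpla2, had -0.11 ± 0.44 and turned sign under 2 of the 5 scalings.

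Lipid uptake has other genes beside Lpl and Fabp4. Of 10 of these, none was lower and 2 were higher, among them Fabp5, the epidermal fatty acid-binding protein (165 ± 91.8 to 466 ± 84.3 CPM). Cd36, a fatty acid transporter, had -1.11 ± 0.53, and Gpihbp1, which holds lipoprotein lipase on capillaries, had -0.08 ± 0.49, and neither passed. The median of -0.18 ranged from -0.65 to 0.58 over 5 other scalings. Of 8 further droplet genes tested, Cidea, a droplet protein of brown fat and of sebocytes, fell from 26.9 ± 27.7 to 1.36 ± 1.23 CPM and Fitm1 also fell, while Hilpda, a hypoxia-inducible droplet protein, rose from 2.35 ± 0.793 to 7.14 ± 2.18 CPM and Bscl2, seipin, rose as well. The perilipins Plin2 (-0.55 ± 0.24) and Plin3 (-0.07 ± 0.15), which most cell types make, did not pass.

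Regulators of fat cell formation went in both directions. Of 17 beside Pparg, 8 were lower and 3 higher. Ebf1 and Ebf2, early factors of the adipocyte lineage, fell from 72.2 ± 7.09 to 31.3 ± 2.66 and from 10.3 ± 1.75 to 3.14 ± 0.919 CPM. Klf5 (-1.02 ± 0.18), Nr1h3, the liver X receptor α (-0.89 ± 0.16), Zfp423 (-1.57 ± 0.34), Ppara (-1.01 ± 0.28) and the coactivator Ppargc1a (-2.49 ± 0.53) fell too. Cebpb and Cebpd, the C/EBP factors that act early in fat cell differentiation and also in inflammation, rose from 20.2 ± 3.35 to 42.0 ± 15.7 and from 11.2 ± 2.74 to 66.3 ± 37.4 CPM. Cebpa, the C/EBP factor of mature adipocytes, which keratinocytes also make, had 0.68 ± 0.27 and did not pass, and Ppard rose by 0.60 ± 0.15 on the log2 scale. The partner receptor Rxra had 0.18 ± 0.16, turning sign under 1 of the 5 scalings.

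Progenitor and stromal markers were split as well: of 10 tested, 5 were lower and 4 higher. Cd34 (221 ± 39.3 to 64.2 ± 7.73 CPM), also a marker of follicle stem cells and vessels, Pi16, Dpp4, Mfap5 and Zfp423 fell. Icam1 (20.8 ± 3.71 to 97.9 ± 12.3 CPM), Ly6a, Cd24a and Pdgfrb rose. Pdgfra had 0.49 ± 0.23 and did not pass. The list's median of -0.28 ranged from -0.80 to 0.05 over the 5 scalings.

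Among 9 tested genes of brown and beige fat, 4 were lower and 1 higher. Cox7a1 fell from 10.8 ± 5.40 to 0.957 ± 0.698 CPM, and Cidea, Ppargc1a and Cox8b also fell. Muscle uses Cox7a1, Cox8b and Ppargc1a as well. Dio2, the thyroid hormone-activating deiodinase, rose from 5.08 ± 1.5 to 85.3 ± 10.7 CPM. Ucp1, the uncoupling protein that defines brown fat, had 1 count in all normal and 5 in all NcstnΔKC libraries and was not tested.

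On the receiving side of leptin and adiponectin, receptors did not pass: Lepr had -0.13 ± 0.37, Adipor1 0.48 ± 0.19 and Adipor2 0.30 ± 0.21, and Lepr and Adipor2 turned sign under 2 and 1 of the 5 scalings. Of 9 genes on this list none was lower, and 3 that act downstream of the leptin receptor and of many cytokine receptors were higher. These were Stat3 (125 ± 11.5 to 397 ± 49.3 CPM), Jak2 (78.2 ± 6.44 to 153 ± 51.6 CPM) and Socs3 (35.3 ± 30.8 to 125 ± 57.9 CPM). No gene called on the lists above changed sign under any of the 5 other scalings, but nearly all of their calls ended when libraries were scaled by fibroblast markers. The calls left were 2 of the 16 further adipocyte genes (Sncg and Lgals12, lower) and, of the brown and beige genes, Cox7a1 (lower) and Dio2 (higher). In the libraries without Xist alone no gene of these lists was called.

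Markers of other tissues moved with the group labels too. The 10 members together took 0.0751%, 0.145%, 0.0847% and 0.163% of the library in the 4 normal replicates in order and 0.0814%, 0.0156%, 0.0449% and 0.0484% in the 4 NcstnΔKC replicates. Skeletal muscle markers took 2.0%, 8.67%, 13.8% and 11.2% in the normal and 2.83%, 0.474%, 0.98% and 1.06% in the NcstnΔKC replicates, again in order, and all 12 were called lower, with a median of -3.56. In both lists NcstnΔKC replicate 1 was the highest and replicate 2 the lowest NcstnΔKC library. Of the 10 members, Plin4 alone ranked the libraries within both groups in the same order as the muscle share. Muscle lies beneath the fat of mouse skin, and the part of its markers' decline in the adipocyte results, that of Plin4 included, was not tested. Genes of the mitochondrial genome took 3.42% to 5.43% of counts in normal and 0.68% to 0.939% in NcstnΔKC libraries, and rRNA-linked genes 8.70% to 9.89% and 3.09% to 7.45%, both without overlap, and their part was likewise not tested. With these and the muscle genes removed before scaling, 7 of the 10 members were called lower and 22% of all genes were. The removal left the members' own counts as they were, so it cannot show what part other tissue has in them.

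Macrophage markers, a cell type that can hold Fabp4 and Lpl, had 5 of 9 higher and none lower, a count of 5 that fell to 1 without NcstnΔKC replicate 3 or 4 or normal replicate 3 and was 8 without NcstnΔKC replicate 1. Endothelial markers, the other source of Fabp4, took 0.0288% to 0.0327% of counts in normal and 0.0314% to 0.0389% in NcstnΔKC libraries. Of these 8 markers 2 were lower (Kdr and Tek), near the 22.7% lower among all genes tested. Their median log2 fold change was 0.02, and Pecam1 had 0.26 ± 0.13. Hair matrix markers, which are high while hair grows, took 0.0283% to 2.83% in normal and 0.0155% to 0.0266% in NcstnΔKC libraries, with 2.83% in normal replicate 2 alone. All 6 that were tested were lower, with a median of -4.26, but 3 of 6 were by the DESeq2 Wald test and 3 of 6 by limma-voom. Without normal replicate 2, 5 of the 6 markers were lower and the median was -2.04. Their part in the adipocyte results was not tested. Of the mammary markers none was tested, and the milk genes Csn1s1, Wap and Lalba had 0 counts in every library.

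**Figure D5:**
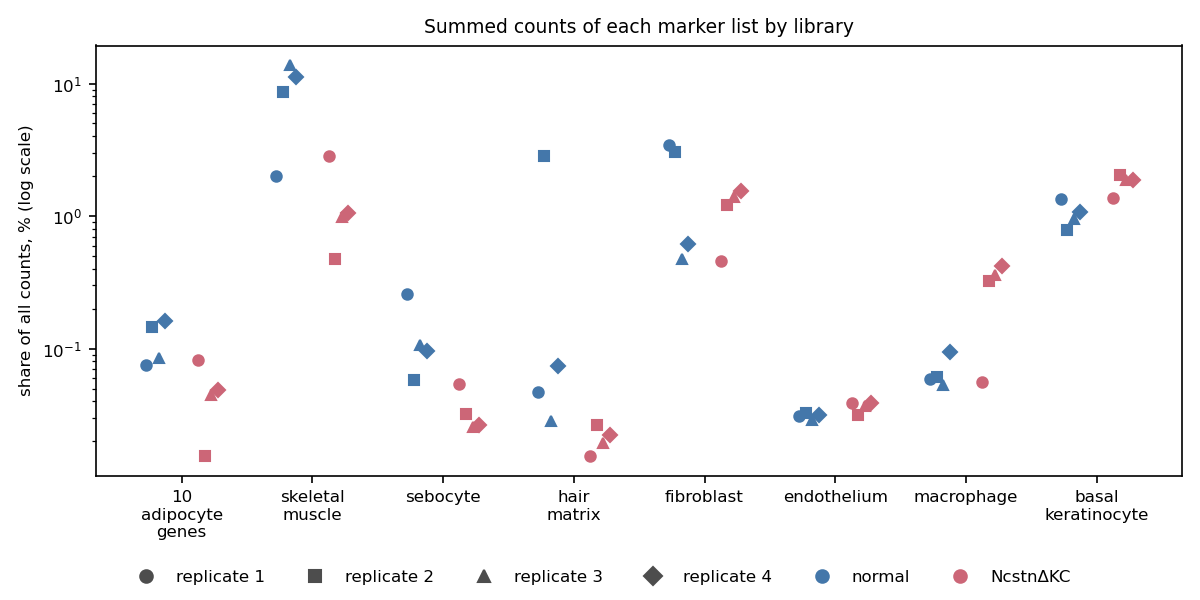
Share of all counts taken by each marker list in each library (log axis, %); colours are the groups and symbols the replicate numbers. The 10 adipocyte genes and the muscle markers are both high in normal replicates 2 to 4 relative to NcstnΔKC replicates 2 to 4, and NcstnΔKC replicate 1 lies nearest the normal libraries in both lists.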

How the data were processed

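RNA from mouse skin was sequenced in 8 libraries, 4 per group. The authors deposited raw whole-number counts per Ensembl gene, and per the submitters' processing notes TopHat2 2.0.9, TopHat and HTSeq were used and the builds mm10 and hg38 are named without a role. The authors also deposited FPKM values, which equalled a gene constant times the count over the column total (to within 0.00103% for 9175 genes with at least 50 counts in every library). The annotation, strand setting and handling of multiply mapped reads are not given in the sources used here. Of 34745 gene IDs, 34267 occur in GENCODE M21 for mm10, 27686 of them (80.8%) with the same coordinates.

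Groups came from the labels. Counts were filtered with filterByExpr, scaled by TMM and compared with edgeR 4.0.16 (R 4.3.3; quasi-likelihood test, robust, two-sided), with p-values adjusted over 15684 genes at a threshold of 0.05. All 4 libraries of a group were used. The common biological coefficient of variation was 0.315. CPM values use the TMM-scaled library sizes, and intervals and the floor of 3 counts cover counting error alone. Replicates of a group differed beyond sampling noise (chi-square per gene 9.63 to 109), so none was counted as a duplicate. The 10 genes and 22 gene lists (232 entries, all matched, 5 by synonym or ID) were chosen with earlier results of these data known. Genes named are the 10, in each list the 4 of lowest p, and others where a list is described, and the 8 with the nearest profile (mean of at least 1 CPM; log2 CPM with 0.5 added). A few genes so named are counted within their lists but not reported here. The 27 alternatives include 5 scalings, DESeq2 1.42.0, limma 3.58.1 (voom, and trend on log2 FPKM with 1 or 0.1 added), filters, Xist class (at least 100 Xist counts) and left-out libraries. The procedure was tested on simulated data. Annotation was read and plots were drawn with Python 3.11.15, pandas 2.3.3 and matplotlib 3.10.9.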

Additional observations from a re-analysis of the deposited data

Results flagged for a closer look

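Adipoq in NcstnΔKC replicate 2 stood apart from the other libraries of its group. At 5.06 CPM it lay below 24.8, 21.4 and 19.9 CPM in replicates 1, 3 and 4, and its gap to the nearest of them made up 0.861 of the group's range on the log2 scale, above Dixon's 95% critical value for 4 samples. Chance alone would mark about 1 in 20 groups in this way, and 10 genes were examined in 2 groups each. NcstnΔKC replicate 2 was also the lowest library for the other members except Lep. Without it the log2 fold change of Adipoq was -1.70 and still passed the threshold.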

How the results depend on the processing

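Among all genes 3360 were called higher and 3555 lower. These counts became 5323 and 2224 with total counts alone, 1000 and 5821 scaled by basal keratinocyte markers, 211 and 161 scaled by dermal fibroblast markers, 5344 and 2123 on log2 FPKM with 1 added, 5299 and 2123 with 0.1 added, 1597 and 2306 with a log2 change of at least 1 also required, and 3 and 1 in the libraries without Xist. Leaving out 1 library at a time gave 2733 to 3870 higher and 2722 to 4124 lower. Of the 10 adipocyte genes 7 were called lower, against 4 without a filter on low counts, 1 scaled by fibroblast markers, 0 in the libraries without Xist (4 at an unadjusted p under 0.05), and 4 to 10 with 1 library left out, 4 being without normal replicate 4. Under the other alternatives, the replicate block aside, 5 to 9 were called lower, and none of the 10 changed sign under any of the 27. Lipe lost its call under 15 alternatives, and Adipoq and Plin4 under 8 each; the cause was not tested. At the depth of these libraries, Lep counts of 0 to 8 limit its fold change in NcstnΔKC skin.

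With the replicate number as a block, 4 of the 10 were called lower, and 2923 genes were higher and 3058 lower. The labels do not say that numbers pair animals. Deviations of same-numbered libraries from their group means correlated at -0.024, -0.037, -0.020 and 0.217. Replicate 4 alone correlated best with its own number, in both groups, and replicates 1 to 3 correlated best with another number.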

Other observations

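Of 10 genes through which fat cells respond to insulin, 3 were lower and 1 higher in the NcstnΔKC libraries, near the shares among all genes tested (22.7% lower and 21.4% higher). Irs1, an insulin receptor substrate, fell from 155 ± 14.5 to 55.0 ± 17.9 CPM (SD, n = 4 each). Trarg1, which traffics with the glucose transporter in fat, fell by 1.31 ± 0.44 on the log2 scale (SE). Irs2, the other substrate, rose from 28.0 ± 2.59 to 118 ± 112 CPM, with a wide spread among the NcstnΔKC libraries. The insulin receptor Insr had 0.41 ± 0.16 and did not pass, and its sign turned under 1 of the 5 other scalings. Of 6 genes of caveolae, the membrane pits that are dense on fat cells, Cavin1 (265 ± 33.5 to 191 ± 12.1 CPM) and Cavin2 (63.0 ± 3.01 to 21.6 ± 17.9 CPM) fell and Cav2 (27.1 ± 3.89 to 51.2 ± 3.50 CPM) rose, while Cav1 had -1.35 ± 0.49 without passing.

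Of 10 genes of the matrix around fat cells, 2 were lower, near the 22.7% lower among all genes tested, and none was higher. Col15a1, a basement membrane collagen, fell from 176 ± 39.2 to 47.3 ± 19.4 CPM and Nid2, nidogen 2, from 32.7 ± 15.3 to 12.3 ± 3.44 CPM. Col6a1 (0.36 ± 0.36), Col6a2 (-0.00 ± 0.36) and Col6a3 (0.63 ± 0.39) did not pass, with the sign turning for Col6a1 under 1 and for Col6a2 under 3 of the 5 scalings. Of 6 partners of adipsin in the alternative complement pathway, none was lower and C3ar1, the receptor of C3a (13.7 ± 5.27 to 52.2 ± 30.5 CPM), and Masp1, a complement protease gene with several splice products that these counts do not separate (16.2 ± 3.01 to 54.5 ± 8.85 CPM), rose. C3, the central complement protein, had -0.70 ± 0.31, and Cfb, the substrate of adipsin, had 0.09 ± 0.39, and neither passed.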
